A study of Mus musculus with 18 samples.

Results

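The 8 genes described here, *Acat2*, *Hmgcs1*, *Mvk*, *Pmvk*, *Mvd*, *Idi1*, *Fdps* and *Fdft1*, encode enzymes of the mevalonate pathway from acetyl-CoA to squalene. They were chosen by name from the 31053 genes of the count table, with earlier results of these data known. All 8 passed the filter on low counts. RNA-Seq was performed on bone marrow (BM)-derived macrophages of 12-week-old mice, 3 *Slc7a7*-/- mice (knockout) and 3 *Slc7a7*+/+ mice (wild type). *Slc7a7* encodes a transporter of cationic and neutral amino acids, and it was deleted in the knockout by LysM-Cre, a Cre recombinase expressed from the lysozyme locus of myeloid cells. The macrophages of each mouse were treated over 24 h with vehicle (control), acetylated LDL (Ac-LDL, 50 μg/mL) or oxidized LDL (Ox-LDL, 100 μg/mL), which gave 18 libraries in 6 groups of 3. All groups were on the C57Bl/6J background, shared the culture medium with macrophage colony-stimulating factor or L-cell conditioned medium, and held 100000 seeded cells for each library.

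The mevalonate pathway is the route by which animal cells make sterols and isoprenoids. Acetyl-CoA units are joined to HMG-CoA, which is carried on to mevalonate. Mevalonate is then phosphorylated and decarboxylated to isopentenyl diphosphate, and isoprene units are joined to farnesyl diphosphate and squalene. Farnesyl diphosphate is also the branch point to the non-sterol products, such as dolichol, ubiquinone and the prenyl groups of proteins. The genes of the pathway are known targets of SREBP2, a transcription factor that is held in the endoplasmic reticulum when membranes are rich in sterols. Scavenger receptors take both modified lipoproteins into macrophages, which are loaded with cholesterol in this way.

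*Acat2*, for the thiolase of the cytosol that joins acetyl-CoA units, lies at chr17:12942890-12960747 on the minus strand of GRCm38 (ENSMUSG00000023832). *Hmgcs1*, for cytosolic HMG-CoA synthase, lies at chr13:119690379-119708260 on the plus strand (ENSMUSG00000093930). The mevalonate kinase gene *Mvk* is at chr5:114444269-114460591 (plus strand, ENSMUSG00000041939), and the phosphomevalonate kinase gene *Pmvk* at chr3:89454541-89469013 (plus strand, ENSMUSG00000027952). *Mvd*, for the decarboxylase that yields isopentenyl diphosphate, is at chr8:122433601-122443422 (minus strand, ENSMUSG00000006517), and *Idi1*, for the isomerase that turns it into dimethylallyl diphosphate, at chr13:8885501-8892451 (plus strand, ENSMUSG00000058258). *Fdps*, for farnesyl diphosphate synthase, is at chr3:89093588-89101959 (minus strand, ENSMUSG00000059743), and *Fdft1*, for squalene synthase, at chr14:63145150-63179578 (minus strand, ENSMUSG00000021273). All are annotated as protein coding, and the counts cover the exons of each gene. Of the 31-base words in the exons of a gene, 43.7% were shared with another gene for *Acat2* (all with *Acat3*), 27.9% for *Fdps* (24.6% with *Gm43738*), 18.8% for *Idi1* and 14.3% for *Fdft1*, so reads there could have been split between copies. *Acat3* held 20.7 and *Gm43738* 21.6 estimated counts over all libraries. On the opposite strand, *Hmgcs1*, *Mvd*, *Idi1* and *Fdft1* overlap *Gm48342*, *Gm20388*, *Gm48574* and *Ctsb*, respectively. The kit keeps the strand, but the strand setting of the counting is not given in the sources used here, so reads of these partners may not have been told apart.

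The promoters of the members are shown because the genes move together and are known SREBP2 targets. RefSeq promoter windows (GRCm38.p6, from 250 bases before to 50 after a RefSeq start site) were matched for 6 of the 8 genes, in 7 windows. *Fdps* and *Fdft1* had no entry. The RefSeq start can differ from the start of the gene position given above, as for *Hmgcs1* and *Idi1*. On both strands, 3 motifs were searched, which do not overlap each other in the windows printed: TCACNCCAC (a sterol regulatory element, SRE), CCAAT (the NF-Y box) and GGGCGG (the GC box of SP1). SREBP2 is known to act together with NF-Y and SP1. The 4 windows printed are those with 2 or more CCAAT boxes: *Hmgcs1* chr13:119690101-119690400 (plus strand), *Mvk* chr5:114444019-114444318 (plus strand), *Mvd* chr8:122443373-122443672 (minus strand) and *Idi1* chr13:8885356-8885655 (plus strand). Each runs 5′ to 3′ along its gene, and capitals mark the motifs, ATTGG and CCGCCC being CCAAT and GGGCGG on the other strand.
Hmgcs1: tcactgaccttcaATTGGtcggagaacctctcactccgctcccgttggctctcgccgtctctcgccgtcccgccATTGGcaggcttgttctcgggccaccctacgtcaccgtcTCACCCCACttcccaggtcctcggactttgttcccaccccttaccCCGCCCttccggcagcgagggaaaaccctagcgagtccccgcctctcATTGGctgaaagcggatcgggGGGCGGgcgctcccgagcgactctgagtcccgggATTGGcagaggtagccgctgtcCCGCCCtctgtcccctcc
Mvk: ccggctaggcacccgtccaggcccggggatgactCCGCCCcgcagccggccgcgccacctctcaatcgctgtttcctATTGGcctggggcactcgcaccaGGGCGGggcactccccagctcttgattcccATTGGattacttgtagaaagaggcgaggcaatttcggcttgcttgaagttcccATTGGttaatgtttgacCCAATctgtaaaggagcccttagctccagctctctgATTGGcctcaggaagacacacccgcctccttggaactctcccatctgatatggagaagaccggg
Mvd: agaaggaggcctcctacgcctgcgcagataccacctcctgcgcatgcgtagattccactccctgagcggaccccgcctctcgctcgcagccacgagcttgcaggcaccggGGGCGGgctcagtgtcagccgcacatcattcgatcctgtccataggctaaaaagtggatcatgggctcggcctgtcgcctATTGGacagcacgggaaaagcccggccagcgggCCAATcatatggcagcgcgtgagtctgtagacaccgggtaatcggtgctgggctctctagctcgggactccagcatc
Idi1: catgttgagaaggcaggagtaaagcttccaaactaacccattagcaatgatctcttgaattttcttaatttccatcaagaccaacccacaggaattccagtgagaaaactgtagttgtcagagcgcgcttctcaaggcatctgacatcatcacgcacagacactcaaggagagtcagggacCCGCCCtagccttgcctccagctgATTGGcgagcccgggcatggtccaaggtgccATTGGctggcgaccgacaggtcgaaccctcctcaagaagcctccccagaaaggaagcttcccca
The *Hmgcs1* window held the only SRE of the 7 windows, TCACCCCAC, at -137 to -129 from the RefSeq start, with 4 CCAAT and 3 GGGCGG boxes. Of all 32851 promoter windows of the table, 1.24% held this SRE, 37.4% a CCAAT and 35.7% a GGGCGG. The *Mvk* window held 5 CCAAT and 2 GGGCGG boxes, and 3.37% of all windows had 3 or more CCAAT boxes. *Mvd* and *Idi1* each had 2 CCAAT boxes and 1 GGGCGG. The *Acat2* window had 1 GGGCGG and no CCAAT, and of the 2 windows of *Pmvk* 1 held a single CCAAT. A match of letters is a description of the window and not evidence of binding.

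Estimated counts per library summed to between 1043492 and 1768816 (median 1466145), so that 3 counts were worth 1.67 to 2.85 CPM, the count scaled to library size. The 8 macrophage markers were all detected in each group, with a summed level of 3476 to 7252 CPM over the libraries. In the knockout that sum was 6031 to 7252 CPM in control, 5197 to 5836 CPM with Ac-LDL and 4208 to 5235 CPM with Ox-LDL, so that it was lower with both LDLs without overlap, while in wild type cells the ranges overlapped (4365 to 7148, 4282 to 5728 and 3476 to 5828 CPM). The single markers went both ways in the knockout, with log2 changes from -0.59 to 0.37 with Ac-LDL (median -0.07). With Ox-LDL they ran from -1.08 to 0.87 (median -0.08). Of the 8 markers, 0 had an adjusted p under 0.05 with either LDL (edgeR quasi-likelihood test). Neutrophil markers summed to 25.5 to 252 CPM, with *Ly6g* at 0 in each library. In wild type cells their sum was higher with Ox-LDL (142 to 252 CPM) than in control (72.9 to 126 CPM) without overlap. In the knockout these ranges overlapped (62.9 to 114 and 51.998 to 141 CPM). With Ac-LDL the sum was 78.9 to 216 CPM in wild type and 25.5 to 64.6 CPM in knockout cells. With either LDL it was thus lower in the knockout than in wild type cells without overlap. Of the 6 neutrophil markers tested, 0 had an adjusted p under 0.05 between the genotypes with either LDL (edgeR quasi-likelihood test). The part of these markers in the results below was not tested. The lists of dendritic, stromal and lymphoid or erythroid markers summed to at most 5.20, 27.8 and 1.79 CPM. *Slc7a7* was at 11.1, 12.6 and 21.1 CPM in the 3 wild type control libraries, 28.5, 23.6 and 23.8 CPM with Ac-LDL and 28.7, 25.9 and 29.3 CPM with Ox-LDL. In the knockout it was at 10.3, 4.33 and 5.16 CPM in control, 2.36, 2.22 and 5.22 CPM with Ac-LDL and 10.1, 10.9 and 8.67 CPM with Ox-LDL, so that it was lowered but still detected.

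In control medium *Idi1*, *Hmgcs1*, *Fdps* and *Fdft1* were the most expressed members in both genotypes, and *Acat2* and *Mvk* the least. Per kilobase of exon, in CPM per kb (mean ± SD, n = 3), wild type cells had the highest levels of *Idi1* (42.8 ± 3.47), *Hmgcs1* (37.6 ± 1.02) and *Fdps* (31.99 ± 4.01), followed by *Fdft1* (20.9 ± 2.98). *Mvd* (12.5 ± 2.23), *Pmvk* (9.70 ± 1.77), *Mvk* (7.80 ± 1.06) and *Acat2* (6.52 ± 0.661) were lower. Each of the first 4 lay above the next gene by more than the sum of the SDs of the pair, while *Mvd*, *Pmvk*, *Mvk* and *Acat2* did not differ from their neighbours by as much. In knockout control cells *Hmgcs1* (36.3 ± 5.32) and *Idi1* (35.6 ± 3.43) did not differ beyond their spread. With Ox-LDL the levels ran from *Hmgcs1* at 6.46 ± 1.93 CPM per kb to *Acat2* at 0.418 ± 0.389 in wild type cells.

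**Figure D1:**
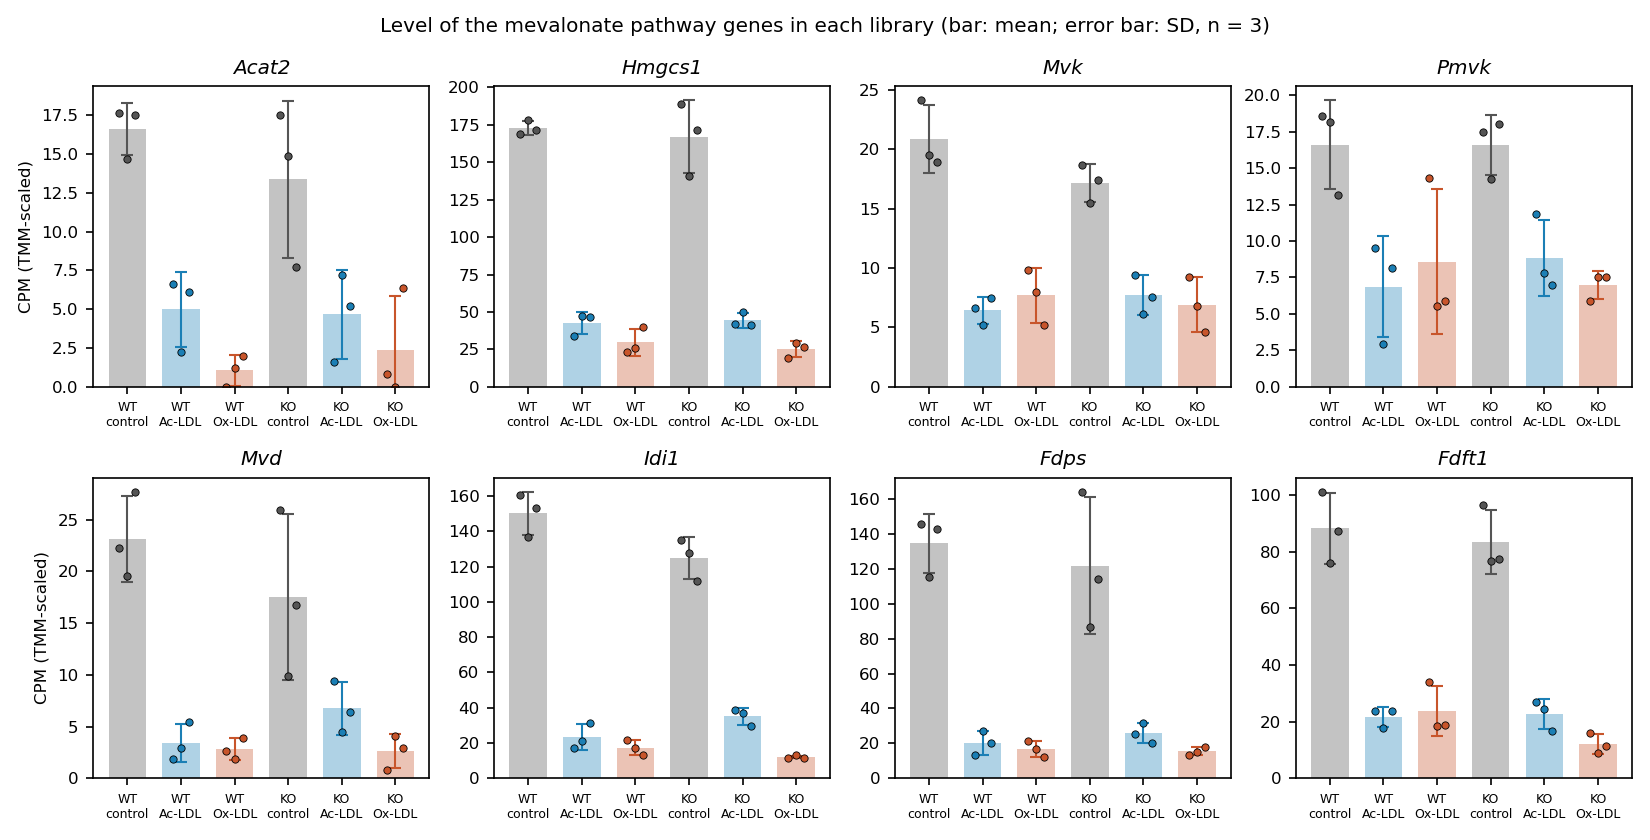
Level of each gene in TMM-scaled CPM (vertical axis, linear, from 0) in each of the 18 libraries (points), with the mean (bar) and SD (error bar) of the 3 libraries of a group; WT is wild type and KO knockout. The grey control bars stand above the blue Ac-LDL and orange Ox-LDL bars in all 8 panels and both genotypes, as for *Idi1*, at 150 CPM in wild type control, 23.3 with Ac-LDL and 17.3 with Ox-LDL.

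The comparison of each LDL with control, within a genotype, asks how lipid loading of macrophages changes these genes. The summed level of the 8 genes was 659, 578 and 632 CPM in the 3 wild type control libraries. It was 113, 127 and 149.6 CPM with Ac-LDL and 127, 95.1 and 101 CPM with Ox-LDL, so the groups did not overlap. In the knockout the sum was 664, 486 and 534 CPM in control, 165, 169 and 134 CPM with Ac-LDL and 77.5, 84.8 and 89.03 CPM with Ox-LDL, again without overlap between control and LDL. In each of the 4 comparisons all 8 genes had lower values with LDL. For every gene the level was lower with LDL than in control within each mouse (24 of 24 pairs of a gene and a mouse in each comparison). The 8 genes share the 3 mice of a genotype, so these pairs are not independent. The share over all genes was not computed for such pairs. In a bulk sample, fewer cells of a type and less RNA of a gene per cell cannot be told apart.

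With Ac-LDL in wild type cells, 6 of the 8 genes fell (edgeR quasi-likelihood test, Benjamini-Hochberg adjusted p under 0.05), where 0.407% of all 12290 genes tested were called lower. The median log2 fold change of the 8 was -2.01, against -0.0030 over all genes tested. With Ox-LDL 7 of 8 fell (background 1.07%), with a median of -2.76. In the knockout, 4 of 8 fell with Ac-LDL (background 0.448%; median -1.63) and 7 of 8 with Ox-LDL (background 1.66%; median -2.68). At an unadjusted p under 0.05 all 8 were lower in each of the 4 comparisons, as were 4.13%, 5.35%, 4.13% and 7.08% of all genes tested in these comparisons. In wild type cells 8 genes with Ac-LDL and 7 with Ox-LDL had no overlap with control (5.48% and 6.17% of all genes tested were lower with no overlap), and in the knockout 8 and 8 (9.37% and 11.6%). With the mouse as a block, the media being paired by animal, 6 of 8 fell with Ac-LDL (background with the block 1.7%) and 8 of 8 with Ox-LDL (4.82%) in the knockout.

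Of the enzymes that build HMG-CoA, *Hmgcs1* was the most abundant member in counts. It was at 169, 178 and 171 CPM in wild type control, 34.2, 47.3 and 46.9 CPM with Ac-LDL and 23.3, 25.9 and 39.8 CPM with Ox-LDL. In the knockout it was at 189, 141 and 171 CPM in control, 41.8, 49.98 and 41.2 CPM with Ac-LDL and 19.4, 29.4 and 26.6 CPM with Ox-LDL. All LDL libraries lay far below all control libraries. The log2 fold changes were -2.00 with Ac-LDL (SE 0.18, adjusted p 1.14e-07) and -2.52 with Ox-LDL (SE 0.18, adjusted p 2.93e-09) in wild type cells. In the knockout they were -1.91 (SE 0.17, adjusted p 4.96e-07) and -2.71 (SE 0.19, adjusted p 1.05e-09), respectively.

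*Acat2*, which supplies acetoacetyl-CoA for this step, was close to the detection limit with LDL. It had 19, 21 and 24 counts in wild type control, 7, 3 and 9 counts with Ac-LDL and 0, 2 and 3 counts with Ox-LDL. In the knockout it had 29, 24 and 12 counts in control, 2, 13 and 9 counts with Ac-LDL and 1, 0 and 11 counts with Ox-LDL, where the third library stood above the others. *Acat2* fell with Ox-LDL in wild type cells (log2 fold change -3.73, SE 0.72, adjusted p 0.00454), to 7.10% of the control count per library size (95% interval 2.23 to 17.5, counting error only). In the knockout the fall with Ox-LDL was close to the threshold (-2.29, SE 0.61, adjusted p 0.0479). It was lost without control replicate 1 (0.205) or 2 (0.142) or Ox-LDL replicate 1 (0.209) or 2 (0.219), with scaling by library size alone (0.0577) and with the default filter (0.0503). Without Ox-LDL replicate 3, which left libraries of 1 and 0 counts, the value was -4.86, and in wild type cells it was -4.37 without Ox-LDL replicate 3, both past the test. DESeq2 gave no adjusted p for the knockout. The changes with Ac-LDL were -1.73 (SE 0.57, adjusted p 0.311) in wild type and -1.43 (SE 0.54, adjusted p 0.433) in knockout cells. When the counts of *Acat3* were joined to it, the log2 fold changes with Ox-LDL were -2.90 in wild type (adjusted p 0.00213) and -1.79 in knockout cells (adjusted p 0.0478). *Acat1*, for the mitochondrial thiolase, which serves ketone bodies and isoleucine breakdown, was at 48.6 ± 9.41 CPM in wild type control, 46.9 ± 2.82 with Ac-LDL and 50.9 ± 8.12 with Ox-LDL (mean ± SD, n = 3), and its changes had adjusted p from 0.686 to 0.983 over the 4 comparisons.

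The kinases changed least. *Mvk*, for the enzyme that first phosphorylates mevalonate, was at 24.1, 19.5 and 18.95 CPM in wild type control, 6.64, 5.17 and 7.48 CPM with Ac-LDL and 9.86, 8.02 and 5.22 CPM with Ox-LDL. Knockout cells had 18.7, 15.5 and 17.4 CPM in control, 9.46, 6.11 and 7.54 CPM with Ac-LDL and 9.26, 6.84 and 4.62 CPM with Ox-LDL. No LDL library reached a control library of its genotype. *Mvk* fell in wild type cells by 3.19-fold with Ac-LDL (log2 -1.67, SE 0.31, adjusted p 0.00692) and by 2.73-fold with Ox-LDL (adjusted p 0.00961), and in the knockout by 2.55-fold with Ox-LDL (adjusted p 0.0140). The value in the knockout with Ac-LDL was -1.17 (SE 0.29, adjusted p 0.0775, or 0.0278 with the mouse as a block). These calls rested on few counts (7 to 13 per library with LDL): that with Ac-LDL was lost without wild type Ac-LDL replicate 2 (0.0567), and that with Ox-LDL in wild type without Ox-LDL replicate 3 (0.0878). In the knockout the call with Ox-LDL was lost without control replicate 1 (0.0749) or 3 (0.0524) or Ox-LDL replicate 2 (0.0668) or 3 (0.142). With a fit of only the libraries compared, the calls in wild type cells were lost (0.0597 and 0.109), and *Mvk* passed with Ac-LDL in the knockout (0.0461).

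*Pmvk*, for the next kinase, was the only member that passed the test in none of the 4 comparisons. It was at 18.6, 18.1 and 13.1 CPM in wild type control, 9.49, 2.96 and 8.16 CPM with Ac-LDL and 14.3, 5.56 and 5.87 CPM with Ox-LDL, where the first library overlapped the control range. Levels in the knockout were 17.5, 14.2 and 18.1 CPM in control, 11.8, 7.77 and 6.96 CPM with Ac-LDL and 5.89, 7.53 and 7.52 CPM with Ox-LDL, with no overlap. The log2 changes in wild type cells were -1.28 with Ac-LDL (95% interval -2.08 to -0.49, adjusted p 0.211) and -1.01 with Ox-LDL (-1.77 to -0.25, adjusted p 0.269). In the knockout they were -0.93 (-1.65 to -0.22, adjusted p 0.412) and -1.22 (-1.97 to -0.47, adjusted p 0.0842). The last of these passed with the mouse as a block (0.0217) and with a fit of only the libraries compared (0.0150).

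*Mvd*, for the decarboxylase, fell to a few counts per library. It was at 22.3, 19.5 and 27.7 CPM in wild type control, 1.90, 2.96 and 5.44 CPM with Ac-LDL and 2.69, 1.85 and 3.91 CPM with Ox-LDL. The knockout had 25.9, 9.90 and 16.8 CPM in control, 9.46, 4.44 and 6.38 CPM with Ac-LDL and 0.842, 4.11 and 2.89 CPM with Ox-LDL. The lowest knockout control library was near the highest Ac-LDL library, while the other groups were well apart. *Mvd* fell 6.35-fold with Ac-LDL (SE of the log2 value 0.44, adjusted p 0.00175) and 8.03-fold with Ox-LDL (0.45, 2.59e-04) in wild type cells, and 6.28-fold with Ox-LDL (0.46, 0.00117) in the knockout. The change with Ac-LDL in the knockout was -1.41 (SE 0.39, adjusted p 0.140, or 0.0245 with the mouse as a block).

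*Idi1*, whose isomerase makes the primer for chain growth, had the smallest p of the 8 genes in 3 of the 4 comparisons. It was at 161, 137 and 153 CPM in wild type control, 17.1, 21.4 and 31.3 CPM with Ac-LDL and 21.5, 17.3 and 13.04 CPM with Ox-LDL. Knockout cells had 135, 128 and 112 CPM in control, 38.6, 37.2 and 29.6 CPM with Ac-LDL and 11.8, 13 and 11.6 CPM with Ox-LDL. Each LDL group lay below control without overlap, and in the knockout the Ox-LDL libraries also lay below all Ac-LDL libraries. *Idi1* fell 6.30-fold with Ac-LDL (log2 -2.65, SE 0.19, adjusted p 3.24e-09) and 8.79-fold with Ox-LDL (log2 -3.14, SE 0.19, adjusted p 2.14e-10) in wild type cells. In the knockout it fell 3.56-fold (log2 -1.83, SE 0.17, adjusted p 7.50e-07) and 10.2-fold (log2 -3.36, SE 0.20, adjusted p 1.42e-10).

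The prenyl synthases followed the same course. *Fdps*, for the enzyme that makes farnesyl diphosphate, was at 146, 115 and 143 CPM in wild type control, 13.3, 27.3 and 20.4 CPM with Ac-LDL and 21.5, 16.7 and 12.4 CPM with Ox-LDL. In the knockout it was at 164, 86.7 and 114 CPM in control, 25.2, 31.7 and 20.3 CPM with Ac-LDL and 13.5, 15.1 and 17.9 CPM with Ox-LDL. Knockout control replicate 1 was the highest of all libraries, and no LDL library came near a control library. The log2 fold changes were -2.69 with Ac-LDL (SE 0.25, adjusted p 2.26e-07) and -3.02 with Ox-LDL (SE 0.25, adjusted p 3.65e-08) in wild type, and -2.23 (SE 0.23, adjusted p 2.91e-06) and -2.95 (SE 0.25, adjusted p 5.38e-08) in knockout cells.

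*Fdft1*, for squalene synthase, which commits farnesyl diphosphate to sterols, was at 101, 76.1 and 87.5 CPM in wild type control, 23.7, 17.7 and 23.8 CPM with Ac-LDL and 34.05, 18.5 and 18.9 CPM with Ox-LDL. Levels in the knockout were 96.5, 76.8 and 77.4 CPM in control, 26.8, 24.4 and 16.8 CPM with Ac-LDL and 16, 8.89 and 11.6 CPM with Ox-LDL. The 3 knockout libraries with Ox-LDL were the lowest of all 18. *Fdft1* fell 4.04-fold with Ac-LDL and 3.79-fold with Ox-LDL in wild type cells (SE of the log2 values 0.23 and 0.23, adjusted p 7.41e-06 and 8.57e-06). In the knockout it fell 3.71-fold and 6.96-fold (SE 0.22 and 0.25, adjusted p 1.43e-05 and 7.04e-08).

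**Figure D2:**
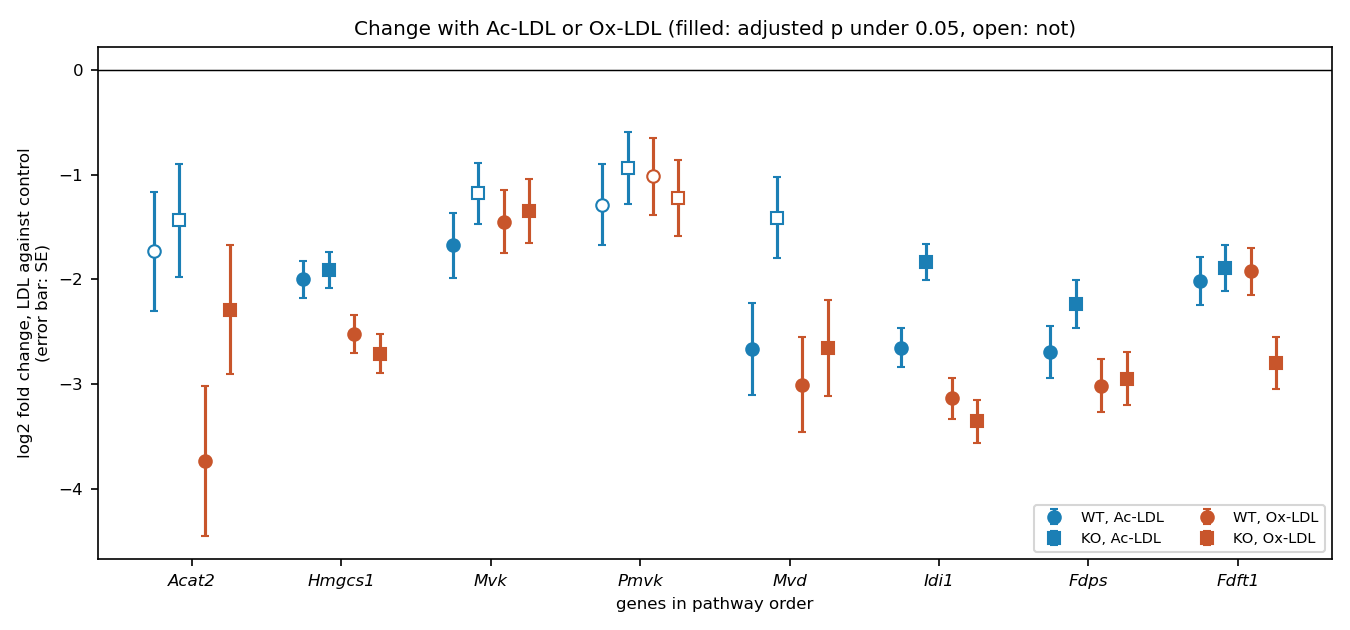
Log2 fold change of each gene with LDL against control (vertical axis) with its SE (error bar), genes in pathway order from left to right; circles are wild type, squares knockout, blue Ac-LDL and orange Ox-LDL, and filled symbols passed an adjusted p of 0.05. All 32 values lie below 0, from -0.93 for *Pmvk* to -3.73 for *Acat2*, and *Mvk* and *Pmvk* lie nearest to 0 with Ox-LDL.

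The members thus differed in the size of their fall more than in its direction. Over the 4 comparisons *Idi1* had log2 changes from -3.36 to -1.83 and *Fdps* from -3.02 to -2.23, while *Mvk* had -1.67 to -1.17 and *Pmvk* -1.28 to -0.93. *Idi1* and *Pmvk* were picked as a pair after their values were seen, and their difference was not tested. Their 95% intervals did not overlap with Ox-LDL in either genotype. These were -3.54 to -2.74 and -1.77 to -0.25 in wild type, and -3.78 to -2.94 and -1.97 to -0.47 in knockout cells. With Ac-LDL they did not overlap in wild type (-3.04 to -2.27 and -2.08 to -0.49) but overlapped in knockout cells (-2.19 to -1.48 and -1.65 to -0.22). Of the summed member counts, *Mvk* and *Pmvk* accordingly made up a larger share with Ox-LDL (7.10% and 7.54% in wild type) than in control (3.33% and 2.66%), and *Idi1* a smaller share (15.96% against 24.1%). With Ac-LDL in the knockout the share of *Idi1* was 22.4%, against 22.2% in control.

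Ox-LDL was next compared with Ac-LDL, although the doses differed (100 and 50 μg/mL), so that the kind and the amount of LDL cannot be told apart. In wild type cells 0 of 8 genes passed the test with edgeR, where 0.00814% of all genes tested were called lower; 0 passed with DESeq2, and 2 were lower at an unadjusted p under 0.05 (2.41% of all genes tested). These were *Hmgcs1* (log2 -0.52, SE 0.21, p 0.0181 before adjustment) and *Acat2* (-2.00, SE 0.87, p 0.0313). Within a mouse, 15 of 24 values, not independent as the genes share the mice, were lower with Ox-LDL than with Ac-LDL. The 95% interval of the log2 difference was -0.45 to 0.64 for *Fdft1* and -1.61 to 0.93 for *Mvd*.

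In the knockout, *Idi1* was lower with Ox-LDL than with Ac-LDL (log2 -1.52, SE 0.23, adjusted p 0.00313), the only call among the 8 (background 0.057%), and the call was lost without Ox-LDL replicate 3 (0.0579). With the mouse as a block 3 genes passed (background with the block 0.871%), *Idi1* (7.85e-05), *Hmgcs1* (log2 -0.80, 0.0244) and *Fdft1* (-0.91, 0.0461). Without the block their values were 0.342 for *Hmgcs1* and 0.641 for *Fdft1*. Of the 8 genes, 5 had Ox-LDL libraries below all Ac-LDL libraries (6.93% of all genes tested), and 21 of 24 values within a mouse, again not independent, were lower. In the other 3, *Acat2*, *Mvk* and *Pmvk*, the groups overlapped. Whether the difference between Ox-LDL and Ac-LDL was itself another in the knockout than in wild type cells was not tested.

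**Figure D3:**
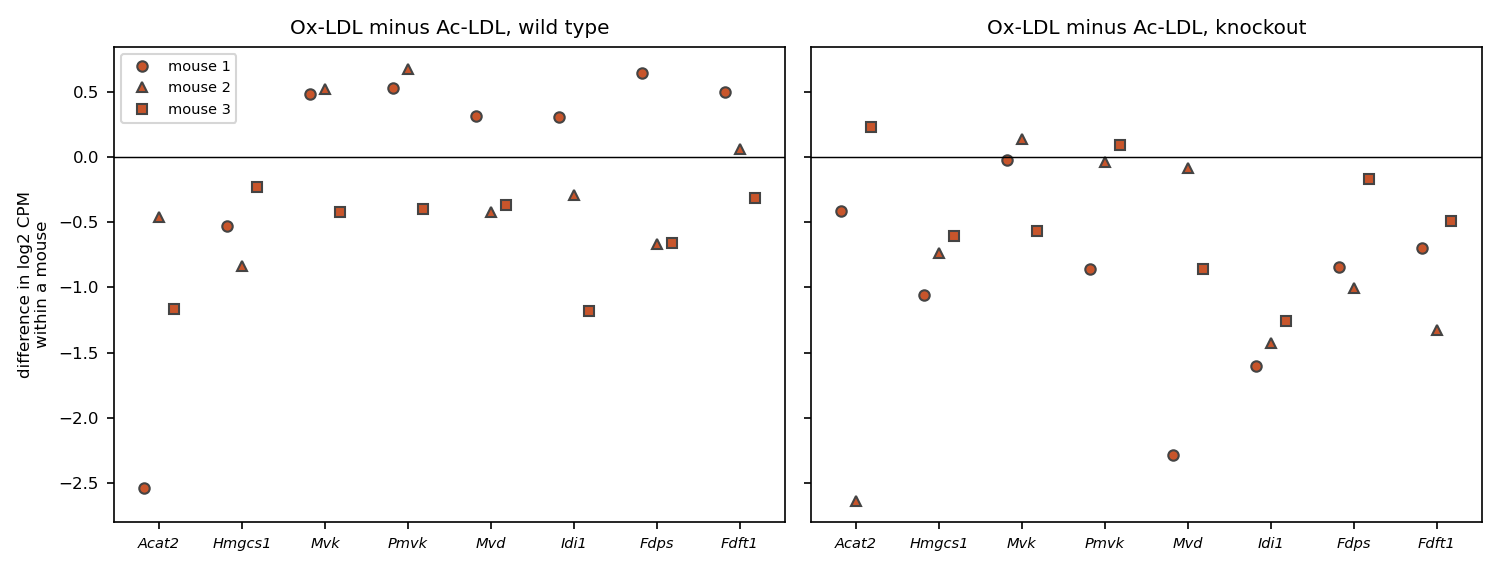
Difference in log2 CPM (prior count 2) between Ox-LDL and Ac-LDL within each mouse (points, 3 for each gene; mouse 1 to 3 are different animals in the 2 panels), wild type on the left and knockout on the right. *Idi1* lies between -1.26 and -1.60 in the 3 knockout mice and between 0.31 and -1.18 in the 3 wild type mice. A difference between the panels was not tested.

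The genotypes were compared within each medium. In control medium 0 of 8 genes passed the test with edgeR (0.00814% of all genes tested were called in either direction), 0 with DESeq2 and 0 at an unadjusted p under 0.05. The log2 difference, knockout minus wild type, was -0.05 for *Hmgcs1* (95% interval -0.37 to 0.27), -0.26 for *Idi1* (-0.58 to 0.05), -0.14 for *Fdps* (-0.56 to 0.27) and -0.07 for *Fdft1* (-0.47 to 0.33). For these 4 abundant genes a change of 2-fold in either direction was outside the interval, as for *Mvk* (-0.81 to 0.27) and *Pmvk* (-0.67 to 0.67). For *Acat2* (-1.28 to 0.67) and *Mvd* (-1.09 to 0.30) a 2-fold lower level was inside it. *Idi1* and *Mvk* had all knockout control libraries below all wild type ones (4.39% of all genes tested).

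With Ac-LDL 0 of 8 passed (background 0.0163%; DESeq2 0). *Idi1* was at 35.1 ± 4.86 CPM in the knockout and 23.3 ± 7.28 CPM in wild type (mean ± SD, n = 3), a log2 difference of 0.56 (SE 0.21, p 0.0131 before and 0.990 after adjustment), and the groups overlapped. With Ox-LDL 0 of 8 passed (background 0.00814%; DESeq2 0). *Fdft1* was at 12.2 ± 3.59 CPM in the knockout and 23.8 ± 8.85 CPM in wild type, a log2 difference of -0.95 (SE 0.29, p 0.00291 before and 0.933 after adjustment), with no overlap. *Fdft1* and *Idi1* were the genes whose knockout libraries lay below all wild type ones (4.8% of all genes tested).

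Whether the knockout responded to LDL by another amount than wild type cells was tested as an interaction. With Ac-LDL 0 of 8 genes passed (edgeR; background 0%, with 327 of all genes at an unadjusted p under 0.05), and 0 with DESeq2. All 8 estimates were above 0, that is, with a smaller fall in the knockout, with a median of 0.40 against -0.0037 over all genes, the control and Ac-LDL libraries being shared by the 8. The sign was not stable for each gene: over the alternative fits 5 of 152 values had the other sign. The lowest were -0.12 for *Acat2*, -0.04 for *Hmgcs1* and -0.01 for *Pmvk*. The largest in relation to its error was *Idi1*, at 0.82 (SE 0.26, p 0.00402 before and 1 after adjustment), the next *Mvd*, at 1.25 (SE 0.62, p 0.0536). With Ox-LDL 0 of 8 passed with either tool (edgeR background 0%, 338 of all genes at an unadjusted p under 0.05), and 4 of 8 estimates were below 0. *Fdft1* had an estimate of -0.88 (SE 0.35, p 0.0182 before adjustment). The 95% intervals of these differences were narrowest for *Hmgcs1*, -0.42 to 0.60 with Ac-LDL and -0.74 to 0.36 with Ox-LDL. They were widest for *Acat2*, -1.37 to 1.97 and -0.75 to 3.65, and for *Mvd* they were -0.02 to 2.53 and -1.16 to 1.87. For *Idi1* with Ac-LDL (0.29 to 1.35) and *Fdft1* with Ox-LDL (-1.59 to -0.16) the interval left out 0 before adjustment over all genes.

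Across the 18 libraries, the members varied together. The correlation of a gene's log2 CPM with the mean of the other 7 ranged from 0.769 for *Acat2* to 0.981 for *Idi1* (Pearson's r, a description over 18 libraries that share their media), and that between pairs of members had a median of 0.844 over 28 pairs. After the group means were taken off, the correlations with the mean of the others were from -0.253 for *Acat2* to 0.548 for *Idi1*, so that most of the shared variation lay between the groups. Of the 9823 genes tested with a mean of at least 5 CPM, those most like the members' mean included *Cyp51* (r = 0.979), *Msmo1* (0.978), *Sqle* (0.970), *Insig1* (0.969) and *Hsd17b7* (0.957), as well as *Ehd1* (0.951) and *Sod2* (0.945). *Cyp51*, *Msmo1*, *Sqle* and *Hsd17b7* encode later enzymes of cholesterol synthesis, and *Insig1* a sterol-dependent anchor of the SREBP complex. *Ehd1*, for a protein of endocytic recycling, went from 218 CPM in wild type control to 101 with Ac-LDL and 83.9 with Ox-LDL. *Sod2*, for the mitochondrial superoxide dismutase, went from 139 to 71.3 and 53.4 CPM.

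Most of the genes for the enzymes that turn squalene into cholesterol fell as well. Of 12 such genes, all tested, 7 fell with Ac-LDL and 8 with Ox-LDL in each genotype, and 0 rose. Among those that passed in none of the 4 comparisons were *Lbr*, *Ebp* and *Tm7sf2*, named after their values were seen, and *Lbr* had log2 values of 0.27 with Ac-LDL and 0.02 with Ox-LDL in the knockout. The median log2 change of the 12 was -1.59 and -1.72 in wild type and -1.36 and -1.85 in knockout cells. *Sqle*, for squalene epoxidase, fell from 115 ± 9.27 CPM in wild type control to 19.9 ± 4.17 with Ac-LDL and 12.4 ± 1.71 with Ox-LDL (mean ± SD, n = 3; log2 -2.50 and -3.22). *Cyp51*, for lanosterol demethylase, changed by -2.35 and -2.78 on the log2 scale in wild type and -1.75 and -2.51 in knockout cells. *Msmo1*, for a sterol methyl oxidase, changed by -2.15 with Ox-LDL in wild type cells.

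The non-sterol branch did not follow. Of 16 genes for the prenyl transferases and for dolichol and ubiquinone synthesis, 0 passed in any of the 4 comparisons of LDL with control with edgeR or DESeq2, and medians were from -0.03 to 0.14. At an unadjusted p under 0.05, 2 passed with Ac-LDL in wild type and 1 with Ox-LDL in the knockout, 0 in the other comparisons of LDL with control. Of 10 genes of the SREBP system and its other targets, 9 were tested, and the same number, 4, fell in each of the 4 comparisons. *Srebf2*, for SREBP2 itself, changed by -1.81 and -1.62 in wild type and -1.20 and -1.50 in knockout cells. *Insig1* changed by -1.89 and -1.91 and *Stard4*, for a sterol transfer protein, by -1.47 and -1.61 in wild type cells.

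Of 10 genes of fatty acid synthesis and desaturation, 3 fell with either LDL in wild type, and 2 with Ac-LDL and 3 with Ox-LDL in knockout cells. *Fasn*, for fatty acid synthase, changed by -1.04 and -1.31 in wild type cells, and *Acly*, for ATP citrate lyase, which makes cytosolic acetyl-CoA, by -0.59 and -0.68. *Fads2*, for a desaturase, changed by -3.20 and -3.50 in wild type cells, from 19.8 ± 4.60 CPM to 2.03 ± 0.632 and 1.90 ± 2.31. The levels with LDL were near the worth of 3 counts (1.67 to 2.85 CPM). In the knockout the lowest value of any gene of this list was -1.34 with Ac-LDL and -2.27 with Ox-LDL. Of the 10 genes, 0 were called between the genotypes in any medium or in either interaction. Genes for LXR, the nuclear receptor of oxysterols, and for its targets mostly went the other way where they were called. Of 7 such genes, with those for LXR itself included, 4 rose with Ac-LDL in each genotype. With Ox-LDL 3 rose in wild type and 4 in knockout cells. The cholesterol exporters *Abcg1* and *Abca1* rose by 1.92 and 2.02 with Ac-LDL in wild type cells and by 1.72 and 1.59 with Ox-LDL in the knockout. *Mylip*, for a ubiquitin ligase, rose by 1.21 with Ox-LDL in wild type cells. *Arl4c* rose by 0.97 with Ac-LDL in the knockout. The 1 gene of this list that fell, with Ox-LDL in both genotypes, was *Nr1h3*, for LXRα, named after its values were seen (log2 -0.88 and -0.88, adjusted p 0.0217 and 0.0138).

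**Figure D4:**
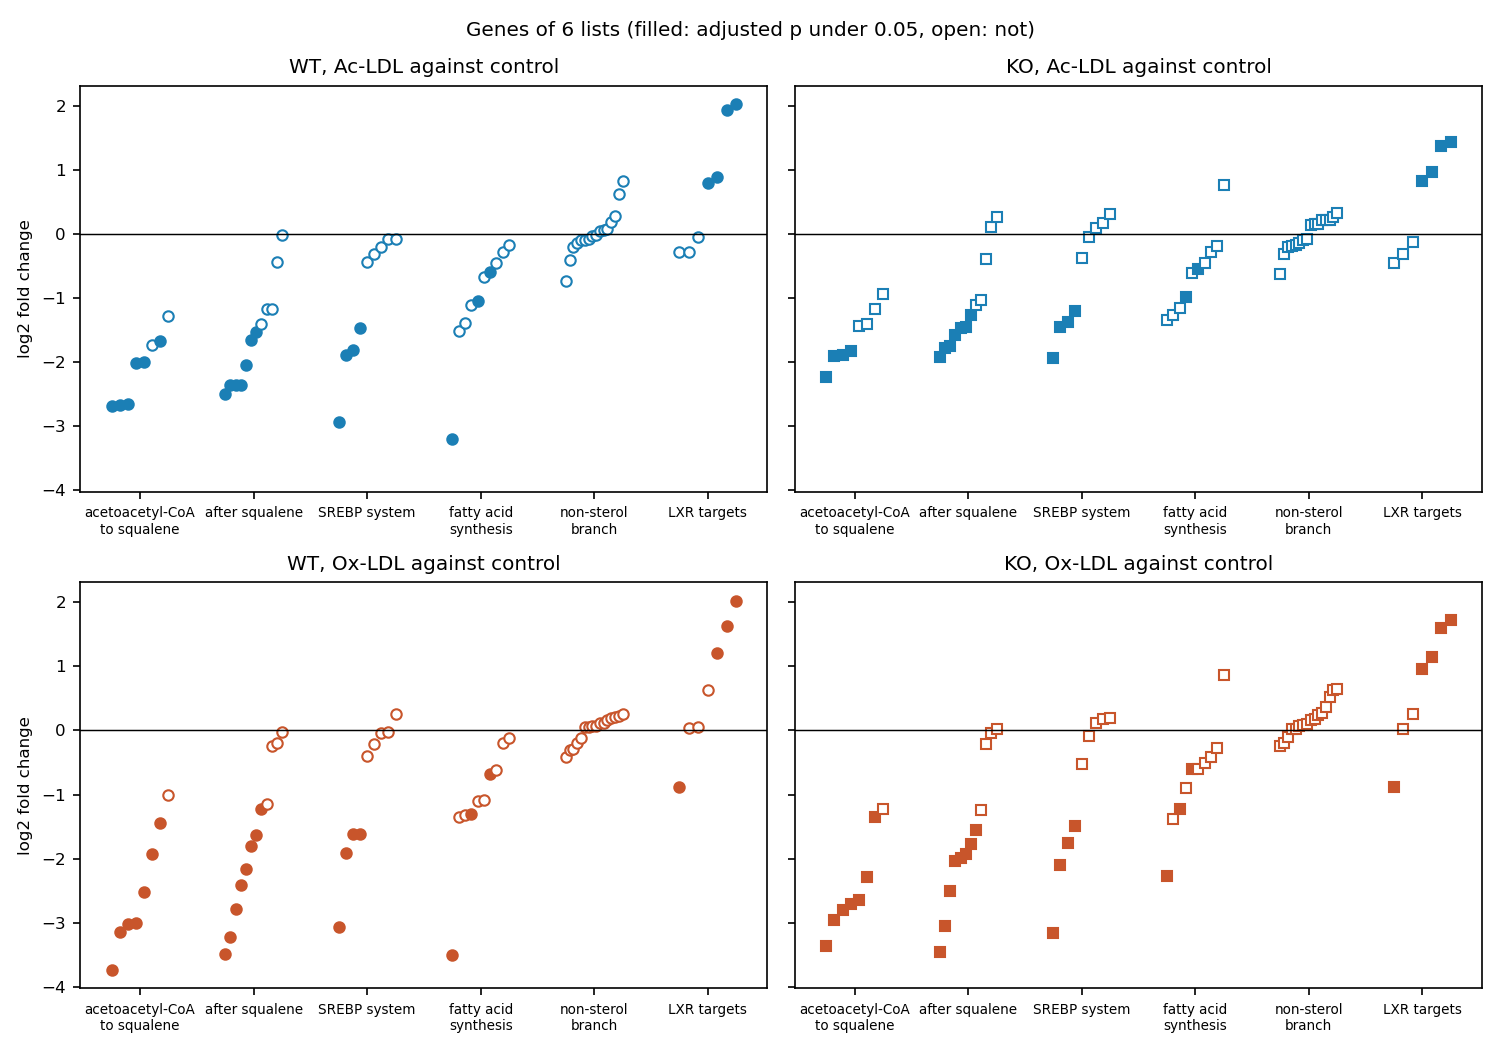
Log2 fold change with LDL against control (vertical axis) of each tested gene of 6 lists (points, sorted within a list), in wild type (left) and knockout cells (right), with Ac-LDL (top) and Ox-LDL (bottom); filled symbols passed an adjusted p of 0.05. The 8 genes up to squalene and most of the 12 genes after it lie below 0, and the 16 genes of the non-sterol branch lie around 0. The filled points of the LXR list, which holds the receptor and its targets, lie above 0 apart from *Nr1h3*.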

How the data were processed

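RNA-Seq of 18 libraries of BM-derived macrophages was analysed. The authors deposited estimated counts, as salmon gives them for each gene and without normalization. These were made with STAR and salmon on mm10 after trimming in the nf-core pipeline, versions not given in the sources used here. All columns were used, with 0 columns of other samples. Counts were rounded (5.85% to 8.10% of the values above 0 of a library were not whole). Genes were filtered with filterByExpr (minimum count 2, minimum total count 10), leaving 12290 of 31053, of which 22179 had a count. Counts were scaled by TMM and fitted with edgeR (4.0.16, R 4.3.3) as 6 groups without a covariate. The quasi-likelihood test was used for 11 comparisons, with Benjamini-Hochberg adjusted p (all genes tested, threshold 0.05). CPM are TMM-scaled, log2 CPM have a prior count of 2, an SE is the log2 fold change over the square root of F, and 95% intervals of log2 values come from it. Pairs of replicates differed beyond sampling noise, with chi-square values per degree of freedom of 3.83 to 12.7 in wild type and 2.03 to 4.27 in knockout cells. The main fit shared its estimate of the spread over all 18 libraries. Intervals of counts are binomial, on counts summed over the libraries of a group. They cover counting error only and leave out the spread between replicates. No molecular identifiers were used.

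Mouse numbers in the labels recur in all 3 media, so media within a genotype were paired by animal. Libraries from 1 mouse deviated from their group means with correlations of 0.0551 to 0.293, over 0.1 in 14 of 18 pairs. Alternatives were DESeq2 (1.42.0), scaling by library size alone, the default filter or no filter, fits restricted to the libraries compared, a replicate block, each library left out in turn and, chosen after seeing the data, counts of copies joined to *Acat2* and *Fdps*. The procedure was tested on simulated data. The members and gene lists were chosen with earlier results of these data known. Named were the 8 members, up to 4 genes with the smallest p of each related list and the 10 genes most like the members' mean; a few further genes named by it are left out here. Gene positions are from GENCODE M21, figures from matplotlib 3.10.9.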

Additional observations from a re-analysis of the deposited data

How the results depend on the processing

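The count of members called stayed within 1.5 times its main value under each alternative in 10 of the 11 comparisons, and no called value changed sign. For Ox-LDL against Ac-LDL in the knockout the count was 1, but 2 without a filter, 3 with the replicate block by mouse, and 0 to 1 with a library left out, 0 without Ox-LDL replicate 3. The cause was not tested. With the block by mouse the calls of *Mvk* and *Mvd* with Ac-LDL and of *Pmvk* with Ox-LDL in the knockout were gained (6 and 8 members called), and it changed no other member's call against control. Without a filter *Acat2* passed with Ac-LDL in wild type (adjusted p 0.0153), *Mvd* with Ac-LDL (0.0223) and *Pmvk* with Ox-LDL (0.0420) in the knockout. With fits of only the libraries compared, *Mvk* with Ac-LDL (0.0461) and *Pmvk* with Ox-LDL (0.0150) passed in the knockout. Over all alternatives 5 to 7 and 6 to 7 members were called with Ac-LDL and Ox-LDL in wild type, 4 to 6 and 5 to 8 in knockout cells, and 0 in each comparison of the genotypes and each interaction, where a block for the replicate number, which marks different animals, also gave 0. The calls lost were those of *Acat2*, *Mvk* and *Idi1* given above. Uncalled values changed sign in 55 fits, 33 of them in the comparisons of genotypes. Over all genes, calls against control ranged between settings from 32 to 265 (main 58) and 62 to 539 (165) in wild type, and from 31 to 307 (64) and 149 to 882 (285) in knockout cells, the highest with the block by mouse. Depth limits *Acat2*, *Mvd*, *Mvk* and *Pmvk*, which had 0 to 16 counts per library with LDL.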
